A study of Mus musculus with 9 samples.

Results

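Polycomb repressive complex 2 (PRC2) is the chromatin complex that methylates lysine 27 of histone H3, a mark of silenced genes. The transcripts of 10 of its subunit genes were taken by gene symbol from FPKM tables of primary mouse pro-B cell cultures, out of 23279 gene rows. All 10 were present once and all 10 were among the 10878 genes tested, whose raw FPKM (sequenced fragments per unit of transcript length and library size) averaged 1 or more over the libraries. They were 6 core genes (Ezh2, Ezh1, Eed, Suz12, Rbbp4 and Rbbp7) and 4 accessory genes (Jarid2, Mtf2, Phf19 and Phf1).

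There were 9 libraries in 3 groups of 3. Ts1Rhr cultures came from FVB x C57BL/6 F1 mice with an extra copy of a chromosome segment that holds Hmgn1, a gene for a nucleosome-binding protein. HMGN1_OE cultures came from C57BL/6 mice that overexpress Hmgn1, by a construct whose promoter the labels do not state. WT cultures came from wild-type littermates, for which the labels give no strain. All mice were 6 to 8 weeks old, and all cultures were bone marrow grown for 7 days in methylcellulose with interleukin-7 before their colonies were pooled. Strain and genotype therefore cannot be told apart between the mutant groups, and strain may also differ between each of them and WT. The labels number the samples of a group as biological replicates but do not tie them to animals, so p-values measure only the spread between these samples.

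Every gene had a value in each of 2 deposited tables. The raw table holds FPKM before scaling to the ERCC spike-ins, synthetic RNAs added to each RNA sample. The normalised table holds FPKM after the authors' further scaling, and is the main one here. In the raw table the library medians over tested genes lay between 3.66 and 3.69 on the log2 scale, and in the normalised table between 3.39 and 4.09. The depth is unknown, since FPKM are not counts. Raw Hmgn1 was 127, 125 and 126 FPKM in Ts1Rhr, 77.2, 71.9 and 73.4 FPKM in HMGN1_OE and 60.1, 67.3 and 58.5 FPKM in WT libraries. Both mutant groups were above WT, and Ts1Rhr was above HMGN1_OE. By the limma test described below, Hmgn1 did not pass in HMGN1_OE against WT with raw (log2 fold change 0.26, limma adjusted p = 0.345) or normalised FPKM (0.41, limma adjusted p = 0.540). In Ts1Rhr against WT it passed with raw (1.03, limma adjusted p = 0.00923) but not with normalised FPKM (0.94, limma adjusted p = 0.0909). Ts1Rhr replicate 3 stood apart in sex-linked transcripts, with 0.443 FPKM of Xist and 41.8 FPKM of Ddx3y, against 94.2 to 193 FPKM of Xist and at most 0.0642 FPKM of Ddx3y in the other libraries. All 15 pro-B markers passed the filter, among them Ebf1 and Vpreb1. Lyz2, a lysozyme gene of macrophages and granulocytes, took 2.65% to 5.18% of the summed raw FPKM of a library.

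The methyltransferase of PRC2 is either EZH2 or EZH1, which need EED and SUZ12 to be active. EED binds the methylated histone tail and SUZ12 is the scaffold, while RBBP4 and RBBP7 are histone chaperones that also serve other complexes. MTF2, PHF19 and PHF1 are the Polycomb-like proteins, which recruit one form of PRC2 to CpG-rich DNA, and JARID2 belongs to the other form. In the B lineage EZH2 is abundant in dividing progenitors and is needed for rearrangement of distal immunoglobulin heavy-chain variable genes, whereas EZH1 is typical of resting cells.

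The promoters of Ezh2, Suz12 and Phf19 are shown because they were the members whose promoter held a word of the E2F type, the binding pattern of cell-cycle regulators. Ezh1 is shown beside them as the paralogue of Ezh2. They are RefSeq promoters on GRCm38.p6, which is not the build of the expression files, and run from 250 bases before to 50 bases after the annotated transcription start. All are printed 5′ to 3′ on the strand of the gene, and capitals mark an E2F word.
Ezh2 (chr6:47594981-47595280, minus strand): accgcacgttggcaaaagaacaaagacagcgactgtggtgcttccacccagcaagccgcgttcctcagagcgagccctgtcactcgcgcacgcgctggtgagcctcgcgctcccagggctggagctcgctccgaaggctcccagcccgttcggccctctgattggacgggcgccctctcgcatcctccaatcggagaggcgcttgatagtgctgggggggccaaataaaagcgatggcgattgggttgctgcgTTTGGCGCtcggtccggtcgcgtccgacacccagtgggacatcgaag
Suz12 (chr11:79992856-79993155, plus strand): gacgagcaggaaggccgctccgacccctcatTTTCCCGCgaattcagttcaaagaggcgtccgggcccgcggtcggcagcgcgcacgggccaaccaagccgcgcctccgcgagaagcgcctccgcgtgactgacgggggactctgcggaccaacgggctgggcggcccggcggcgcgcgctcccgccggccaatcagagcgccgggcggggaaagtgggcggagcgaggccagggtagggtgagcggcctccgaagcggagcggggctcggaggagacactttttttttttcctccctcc
Phf19 (chr2:34913927-34914226, minus strand): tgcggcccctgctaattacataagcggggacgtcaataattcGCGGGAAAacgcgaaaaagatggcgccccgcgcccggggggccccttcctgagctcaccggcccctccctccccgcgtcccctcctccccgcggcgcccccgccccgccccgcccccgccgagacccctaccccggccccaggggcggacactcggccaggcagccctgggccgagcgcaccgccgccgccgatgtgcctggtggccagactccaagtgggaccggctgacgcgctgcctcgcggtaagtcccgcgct
Ezh1 (chr11:101226414-101226713, minus strand): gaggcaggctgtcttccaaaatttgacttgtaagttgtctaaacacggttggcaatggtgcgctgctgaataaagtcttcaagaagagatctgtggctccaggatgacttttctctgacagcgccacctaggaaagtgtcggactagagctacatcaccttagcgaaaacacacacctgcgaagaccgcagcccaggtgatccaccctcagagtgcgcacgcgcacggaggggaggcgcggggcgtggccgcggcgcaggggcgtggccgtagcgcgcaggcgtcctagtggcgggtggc

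E2F words were TTTGGCGC, TTTCCCGC, TTTCGCGC and TTTGCCGC, on both strands. The Ezh2 promoter held TTTGGCGC from base 4 of the transcript. The Suz12 promoter held TTTCCCGC from base -219, and the Phf19 promoter held the same word on the other strand, read as GCGGGAAA from base -208. No such word was in the windows of the other 7 members. Of 32544 promoters of this length, 2.28% held one. These promoters left out 1 chromosome and counted a repeated sequence once. The 10 members had 12 promoters, a pair each for Jarid2 and Mtf2. CCAAT, searched on both strands, was in 8 of the 12 promoters, those of 7 members, and in 37.4% of the 32544 promoters. Ezh2 held it at 3 positions, and Ezh1, Phf19 and Phf1 did not hold it. TTTGAA, on both strands, was in 3 of the 12 promoters (Eed, Suz12 and 1 of Mtf2), and in 17.8% of the 32544 promoters. A match is a description of letters in a window and not a binding site.

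The subunits spanned a wide range of transcript levels per length. Over the 9 libraries Ezh2 averaged 191 normalised FPKM, above 96.6% of tested genes. It was followed by Rbbp7 (136 FPKM), Suz12 (89.8 FPKM), Rbbp4 (58.1 FPKM) and Mtf2 (43.1 FPKM). Much lower were Eed (12.5 FPKM), Jarid2 (8.04 FPKM), Ezh1 (7.43 FPKM), Phf1 (4.67 FPKM) and Phf19 (2.61 FPKM, above 11.2% of tested genes). Each member was above the next one in 9 of 9 libraries in both tables, with a single exception. Jarid2 exceeded Ezh1 in 5 of 9 libraries, so these neighbours could not be ordered. Eed, whose product the complex needs in every form, thus had a transcript level well below those of Suz12 and Ezh2. Among the Polycomb-like genes, Mtf2 was the predominant transcript in every library.

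**Figure D1:**
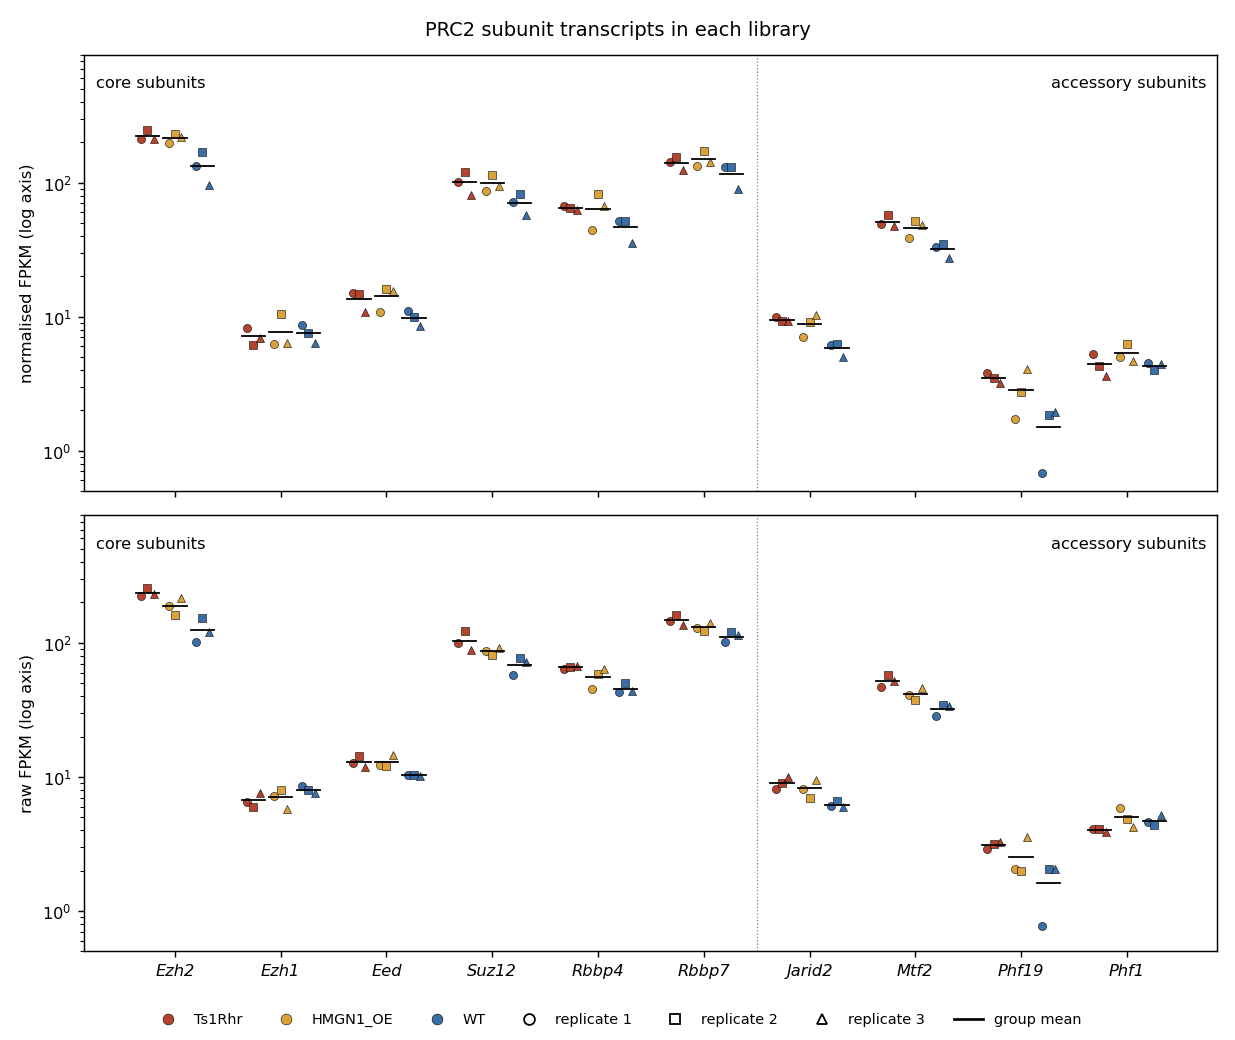
FPKM of each PRC2 subunit gene in each library on a log axis, from the normalised table (top) and the raw table (bottom); points are libraries, colours are groups, marker shapes are replicate numbers and bars are group means. Ezh2 is the highest transcript and Phf19 the lowest, and the Ezh2, Jarid2 and Mtf2 values of Ts1Rhr and of HMGN1_OE lie above those of WT in both panels.

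In Ts1Rhr cultures most PRC2 transcripts had higher values than in WT cultures, with Ezh2, Mtf2, Suz12 and Rbbp4 passing the test in the raw table and none of the 10 passing it in the normalised table. Ezh2 was 1.92-fold higher in raw FPKM and 1.73-fold higher in normalised FPKM. Ezh1 and Phf1 were the exceptions, with folds close to or below 1. The test was limma on log2 values with all 9 libraries in 1 fit, Benjamini-Hochberg adjustment over all 10878 genes and a threshold of 0.05. Raw values entered as log2(FPKM + 0.1), which understates the change of low genes such as Phf19.

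Ezh2, the catalytic subunit, had normalised values of 213, 245 and 213 FPKM in Ts1Rhr, 198, 232 and 218 FPKM in HMGN1_OE and 133, 168 and 95.6 FPKM in WT libraries. In the raw table it had 222, 256 and 233 FPKM in Ts1Rhr, 189, 162 and 216 FPKM in HMGN1_OE and 102, 153 and 121 FPKM in WT libraries. All libraries of either mutant group were above all WT libraries in both tables, and in the raw table the Ts1Rhr libraries were also above the HMGN1_OE libraries. The Ts1Rhr-to-WT log2 fold change was 0.94 ± 0.17 (SE, n = 3 each) with raw FPKM, limma adjusted p = 0.0309. With normalised FPKM it was 0.79 ± 0.28 (SE, n = 3 each), limma adjusted p = 0.151. The SE was larger with normalised than with raw FPKM for every member, and the cause was not tested. The 3 WT values of Ezh2 had an SD of 36.2 FPKM (mean 132 FPKM) with normalised and 25.7 (mean 125) with raw FPKM. For HMGN1_OE the SD of Ezh2 went the other way, with 16.91 FPKM normalised and 26.98 FPKM raw. For Ts1Rhr it was 18.95 FPKM normalised and 17.33 FPKM raw.

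Ezh1, the alternative methyltransferase, had normalised values of 8.18, 6.18 and 6.96 FPKM in Ts1Rhr, 6.20, 10.5 and 6.32 FPKM in HMGN1_OE and 8.67, 7.50 and 6.37 FPKM in WT libraries. The 3 groups overlapped. In the raw table it had 6.52, 5.97 and 7.61 FPKM in Ts1Rhr, 7.23, 8.05 and 5.79 FPKM in HMGN1_OE and 8.53, 8.01 and 7.61 FPKM in WT libraries. There every Ts1Rhr value lay below every WT value, though the closest pair reads 7.61 FPKM on both sides at this rounding. The log2 fold change in Ts1Rhr against WT was -0.08 ± 0.27 with normalised FPKM (limma adjusted p = 0.898) and -0.27 ± 0.17 with raw FPKM (limma adjusted p = 0.312).

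Suz12, the scaffold subunit, had raw values of 99.5, 124 and 88.1 FPKM in Ts1Rhr, 87.0, 81.2 and 92.2 FPKM in HMGN1_OE and 58.0, 76.9 and 71.5 FPKM in WT libraries. Both mutant groups lay above WT. Its normalised values were 101, 119.9 and 80.5 FPKM in Ts1Rhr, 86.9, 114 and 94.8 FPKM in HMGN1_OE and 72.0, 81.9 and 57 FPKM in WT libraries. Here Ts1Rhr replicate 3 fell just under WT replicate 2, so Ts1Rhr and WT overlapped. The Ts1Rhr log2 fold change was 0.59 ± 0.16 with raw FPKM (limma adjusted p = 0.0478) and 0.51 ± 0.26 with normalised FPKM (limma adjusted p = 0.283). Eed, the reader of the methyl mark, had 15.0, 14.6 and 10.9 normalised FPKM in Ts1Rhr, 10.9, 16.0 and 15.6 in HMGN1_OE and 10.9, 9.87 and 8.47 in WT libraries. The groups overlapped, and its Ts1Rhr log2 fold change of 0.46 ± 0.25 did not pass the test (limma adjusted p = 0.306).

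The histone chaperone gene Rbbp4 had 63.8, 65.5 and 67.6 raw FPKM in Ts1Rhr, 45.5, 58.5 and 64.0 in HMGN1_OE and 42.8, 49.8 and 44.0 in WT libraries. Ts1Rhr was above WT, and HMGN1_OE overlapped with both. In the normalised table Rbbp4 had 66.4, 64.2 and 61.9 FPKM in Ts1Rhr, 44.0, 81.6 and 66.4 in HMGN1_OE and 51.3, 51.8 and 35.5 in WT libraries. The Ts1Rhr log2 fold change was 0.53 ± 0.15 with raw FPKM (limma adjusted p = 0.0494), at the edge of the threshold, and 0.49 ± 0.27 with normalised FPKM (limma adjusted p = 0.313). Its paralogue Rbbp7 ranged from 123 to 156 normalised FPKM in Ts1Rhr, 132 to 173 in HMGN1_OE and 89.7 to 131 in WT libraries, and did not pass the test in either table (Ts1Rhr log2 fold change 0.41 ± 0.13 with raw FPKM, limma adjusted p = 0.0753). Rbbp7 is X-linked, and its lowest Ts1Rhr value was that of Ts1Rhr replicate 3 in both tables (123 normalised and 135 raw FPKM). The lowest Ts1Rhr values of the autosomal genes Suz12 and Eed were also those of this library in both tables. Rbbp7 exceeded Rbbp4 in every library, by 1.99 to 3.01 times in normalised FPKM.

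Among the accessory genes, Mtf2 was the one that passed the test. Mtf2 had 46.7, 57.6 and 51.6 raw FPKM in Ts1Rhr, 40.5, 37.5 and 45.8 in HMGN1_OE and 28.6, 34.2 and 33.8 in WT libraries. The 3 groups did not overlap. In normalised FPKM it had 49.4, 56.8 and 47.4 in Ts1Rhr, 38.6, 51.9 and 48 in HMGN1_OE and 33.2, 34.9 and 27.5 in WT libraries, with both mutant groups above WT. The Ts1Rhr log2 fold change was 0.69 ± 0.14 with raw FPKM (limma adjusted p = 0.0325) and 0.69 ± 0.23 with normalised FPKM (limma adjusted p = 0.139).

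Jarid2 had 9.98, 9.30 and 9.21 normalised FPKM in Ts1Rhr, 7.10, 9.08 and 10.3 in HMGN1_OE and 6.14, 6.24 and 5.02 in WT libraries. Both mutant groups were above WT, but its Ts1Rhr log2 fold change of 0.72 ± 0.24 did not pass the test (limma adjusted p = 0.139), nor did the raw one of 0.53 ± 0.17 (limma adjusted p = 0.0665). Phf19 had the highest fold among the members and the widest error. It had 3.81, 3.46 and 3.22 normalised FPKM in Ts1Rhr, 1.72, 2.74 and 4.06 in HMGN1_OE and 0.687, 1.86 and 1.94 in WT libraries. The Ts1Rhr libraries lay close together and above WT, whereas HMGN1_OE overlapped with WT and WT replicate 1 was far below the other WT libraries. Its Ts1Rhr log2 fold change was 1.36 ± 0.45 with normalised FPKM (limma adjusted p = 0.137). Without WT replicate 1 it was 0.88 with normalised FPKM and 0.58 with raw FPKM. Phf1 ranged from 3.62 to 5.28 normalised FPKM in Ts1Rhr, 4.70 to 6.27 in HMGN1_OE and 3.98 to 4.5 in WT libraries. Its Ts1Rhr log2 fold change was 0.01 ± 0.28 with normalised FPKM and -0.23 ± 0.18 with raw FPKM (limma adjusted p = 0.982 and 0.417).

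In total, 4 of 10 members passed the test as higher in Ts1Rhr than in WT with raw FPKM, and 0 as lower, where 4.29% of all tested genes were called higher, 4.56% lower and 8.85% in either direction. With normalised FPKM limma called 0 of 10, where 0.57% of all genes were called (0.423% higher and 0.147% lower), and 4 members had an unadjusted p under 0.05, as did 19.5% of all genes. Not every raw call was kept when 1 library was left out, a setting added after seeing the data. Of the 9 raw fits that left out 1 library, Ezh2 and Mtf2 were called in 5, Rbbp4 in 2 and Suz12 in 1. Log2 fold changes were 0.80 to 1.09 for Ezh2, 0.61 to 0.76 for Mtf2, 0.49 to 0.60 for Rbbp4 and 0.45 to 0.70 for Suz12. All Rbbp4 and Suz12 calls came from fits without an HMGN1_OE library, which leave the fold changes of this comparison as they were. Without HMGN1_OE replicate 1, 2 or 3, limma called 737, 977 and 1276 of all 10878 genes. With a Ts1Rhr or WT library left out, Ezh2 and Mtf2 were called only without Ts1Rhr replicate 1 or WT replicate 2. The fits without these libraries called 293 and 535 of all genes. No member was called without Ts1Rhr replicate 2, Ts1Rhr replicate 3, WT replicate 1 or WT replicate 3. Those fits called only 3, 1, 1 and 2 of all 10878 genes, against 963 in the raw fit of all 9 libraries. The loss of calls was thus not particular to the members. In the fit without Ts1Rhr replicate 3, the library with the other sex-linked pattern, the raw log2 fold change of Ezh2 was 0.95 (limma adjusted p = 0.0767).

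By overlap of the libraries, 5 members (Ezh2, Rbbp4, Jarid2, Mtf2 and Phf19) lay wholly higher in Ts1Rhr than in WT in normalised FPKM and 0 wholly lower, where 21.7% of all genes lay wholly higher and 8.43% wholly lower. In raw FPKM 8 members lay wholly higher (19.1% of all genes) and 2, Ezh1 and Phf1, wholly lower (18.5% of all genes). WT replicate 3 had the lowest normalised value of all 9 libraries for 7 of 10 members, and it also had the lowest normalised median over all tested genes (3.39 on the log2 scale). In the raw table WT replicate 1 had the lowest value for 6 of 10. That library stood apart in other measures, with 10510 raw FPKM of the ribosomal RNA precursor Rn45s, against 325 to 4495 in the others, and with 23.05% of its summed raw FPKM in its 10 highest genes, against 12.4% to 18.03%. The part of these measures in the PRC2 differences was not tested.

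**Figure D2:**
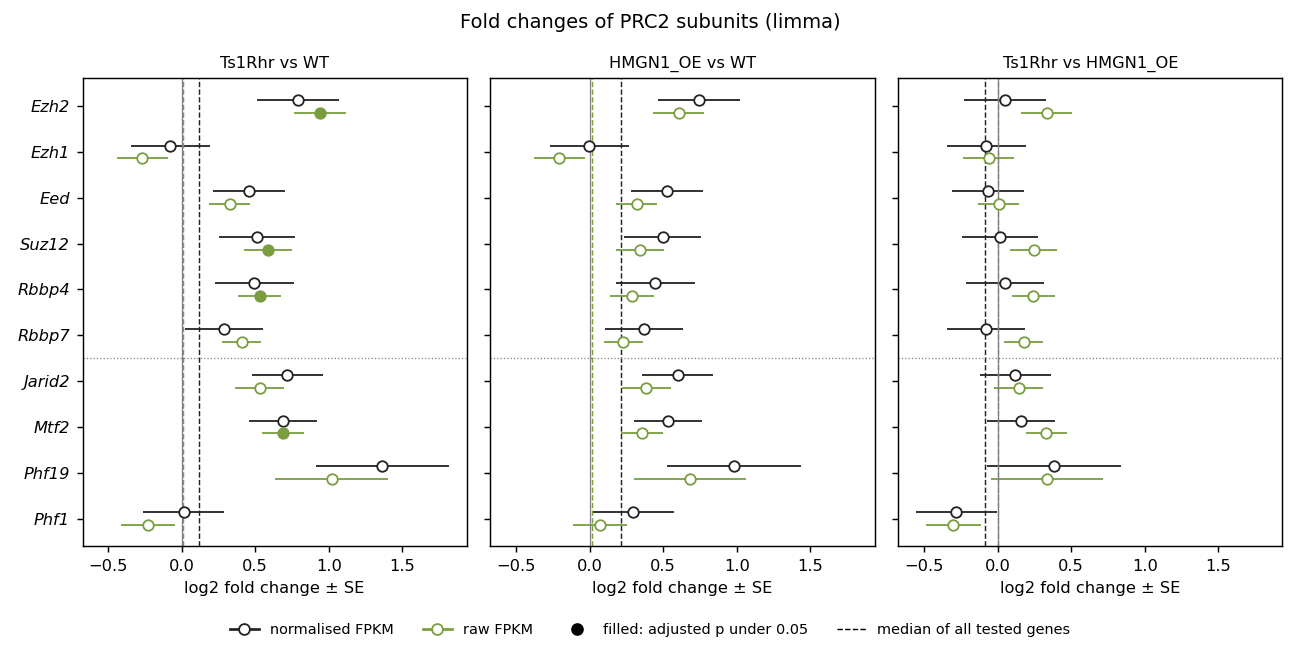
Log2 fold change with its SE from limma for each subunit (rows) in each comparison (panels), with normalised FPKM in black and raw FPKM in green; filled points have an adjusted p under 0.05 and dashed lines mark the median of all tested genes. Filled points are found only for Ezh2, Suz12, Rbbp4 and Mtf2, in Ts1Rhr against WT with raw FPKM.

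The same genes were then compared between HMGN1_OE and WT, a comparison that shares the WT libraries with the one above. Ezh2 was 1.67-fold higher in normalised FPKM and 1.52-fold higher in raw FPKM, and Ezh1 was 0.999-fold and 0.867-fold. No member passed the test. The Ezh2 log2 fold change was 0.74 ± 0.28 with normalised FPKM (limma adjusted p = 0.332) and 0.61 ± 0.17 with raw FPKM (limma adjusted p = 0.276). Limma called 0 of 10 members in both tables, where it called 0.0919% of all genes with normalised FPKM and 0.0368% with raw FPKM. An unadjusted p under 0.05 was found for 5 members with normalised FPKM and 4 with raw FPKM, beside 11.7% and 14.6% of all genes. The remaining normalised log2 fold changes were 0.98 ± 0.45 for Phf19, 0.60 ± 0.24 for Jarid2, 0.53 ± 0.23 for Mtf2, 0.52 ± 0.25 for Eed, 0.50 ± 0.26 for Suz12, 0.45 ± 0.27 for Rbbp4, 0.37 ± 0.26 for Rbbp7 and 0.30 ± 0.28 for Phf1. In normalised FPKM 6 members (Ezh2, Suz12, Rbbp7, Jarid2, Mtf2 and Phf1) lay wholly higher in HMGN1_OE, where 16.6% of all genes did, and none wholly lower (0.8% of all genes). In raw FPKM 6 members (Ezh2, Eed, Suz12, Rbbp7, Jarid2 and Mtf2) lay wholly higher, where 9.81% of all genes did, and none wholly lower (8.25% of all genes). HMGN1_OE replicate 2 had the highest normalised value of all libraries for 5 of 10 members, and for 0 of 10 in the raw table. It also had the highest normalised median over all tested genes, 4.09 on the log2 scale, while raw medians differed little between libraries.

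Between Ts1Rhr and HMGN1_OE no member differed past the threshold in either table, where limma called 0% of all genes and 475 genes with normalised FPKM and 963 with raw FPKM had an unadjusted p under 0.05. For Ezh2 the log2 fold change of Ts1Rhr over HMGN1_OE was 0.05 ± 0.28 with normalised FPKM (limma adjusted p = 0.998) and 0.33 ± 0.17 with raw FPKM (limma adjusted p = 0.594). Mtf2 gave 0.16 ± 0.23 with normalised FPKM and 0.33 ± 0.14 with raw FPKM (limma adjusted p = 0.551). In raw FPKM Ezh2 and Mtf2 lay wholly higher in Ts1Rhr than in HMGN1_OE (6.89% of all genes did) and Phf1 wholly lower (5.99% of all genes). In normalised FPKM no member lay wholly higher (1.79% of all genes) or wholly lower (6.6% of all genes).

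Core and accessory genes were set side by side as groups. In Ts1Rhr against WT the median log2 fold change was 0.48 for the 6 core genes and 0.70 for the 4 accessory genes with normalised FPKM, beside a median of 0.12 over all tested genes. With raw FPKM the medians were 0.47 for the core and 0.61 for the accessory genes, beside 0.01 over all genes. In HMGN1_OE against WT the normalised medians were 0.47 and 0.56, beside 0.21 over all genes, and the raw medians 0.30 and 0.37, beside 0.01. With either kind of value, Ezh1 had the lowest Ts1Rhr fold of the core genes and Phf1 that of the accessory genes. Summed over the core, normalised FPKM was 549.6 ± 55.4 in Ts1Rhr, 549.9 ± 74.7 in HMGN1_OE and 383 ± 80.9 in WT libraries (SD, n = 3 each). Ezh2 made up 40.8% ± 1.99 of that sum in Ts1Rhr, 39.5% ± 2.31 in HMGN1_OE and 34.3% ± 2.74 in WT libraries (SD, n = 3 each). In the raw table its share was 40.4% to 42.8% in Ts1Rhr, 36.5% to 40.6% in HMGN1_OE and 31.5% to 36.6% in WT libraries. HMGN1_OE overlapped with WT in both tables, as its lowest normalised share was 36.9% and the highest of WT was 37.4%. The 4 accessory genes summed to 68.6 ± 5.17 in Ts1Rhr, 63.2 ± 9.39 in HMGN1_OE and 43.5 ± 4.17 normalised FPKM in WT libraries (SD, n = 3 each).

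The balance of the methyltransferases was read as the ratio of both genes within a library, which a scaling by 1 factor per library leaves as it is. The ratio of Ezh2 to Ezh1 in normalised FPKM was 26, 39.8 and 30.6 in Ts1Rhr, 32.0, 22.0 and 34.5 in HMGN1_OE and 15.3, 22.4 and 15.0 in WT libraries. Ezh2 was the main methyltransferase transcript in every library, and all Ts1Rhr ratios were above all WT ratios, whereas HMGN1_OE replicate 2 fell just below WT replicate 2. In raw FPKM the ratio was 34.1, 42.9 and 30.6 in Ts1Rhr, 26.2, 20.1 and 37.3 in HMGN1_OE and 11.9, 19 and 15.9 in WT libraries. There both mutant groups lay above WT. Within a library the normalised and raw ratios differed, as in Ts1Rhr replicate 1 (26 against 34.1) and WT replicate 1 (15.3 against 11.9). The normalised table is therefore not the raw one scaled by 1 factor per library, and the ratio depends on the table.

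The geometric mean of the normalised ratio was 31.6 in Ts1Rhr, 29.0 in HMGN1_OE and 17.3 in WT libraries. On the log2 scale the ratio was 4.98 ± 0.31 in Ts1Rhr, 4.86 ± 0.35 in HMGN1_OE and 4.11 ± 0.33 in WT libraries (SD, n = 3 each). The Ts1Rhr ratio was 1.83-fold that of WT, a log2 difference of 0.87 ± 0.26 (SE), and the exact two-sided permutation test gave p = 0.1, the smallest that 3 libraries against 3 allow. The HMGN1_OE difference from WT was 0.74 ± 0.27 (SE), exact permutation p = 0.2, and that of Ts1Rhr from HMGN1_OE was 0.13 ± 0.27 (SE), exact permutation p = 0.7. In raw FPKM the differences were 1.21 ± 0.24, 0.81 ± 0.32 and 0.40 ± 0.30 (SE) with exact permutation p of 0.1, 0.1 and 0.3. No p of these 3 comparisons could pass 0.05, before or after adjustment.

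**Figure D3:**
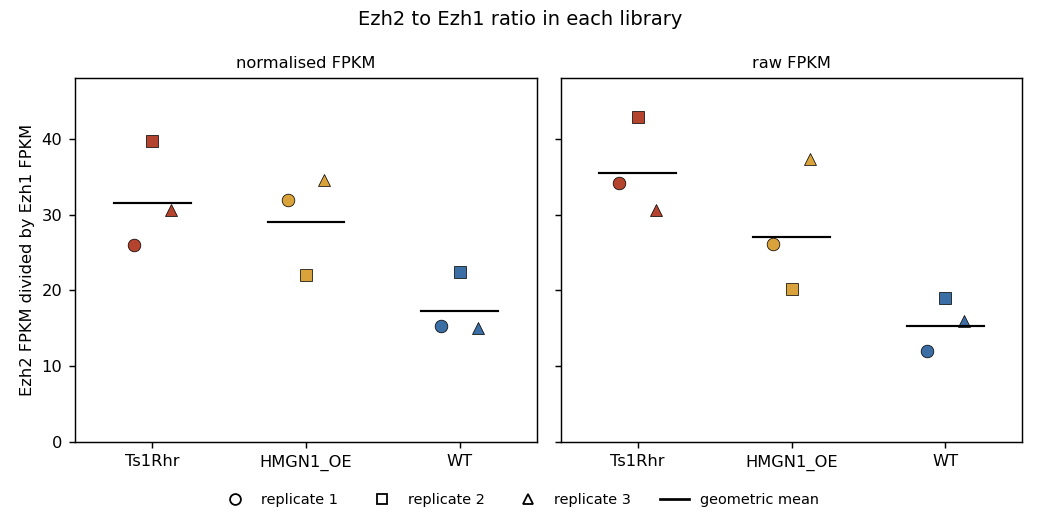
Ezh2 FPKM divided by Ezh1 FPKM in each library, from the normalised table (left) and the raw table (right); markers show replicate numbers and bars the geometric mean of a group. All Ts1Rhr ratios lie above all WT ratios in both tables, and HMGN1_OE lies between 22.0 and 34.5 in the normalised table.

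Likeness of pattern was measured as the root mean square difference of centred log2(raw FPKM + 0.1) profiles over the 9 libraries, so that 0 means the same pattern. The genes closest to Ezh2 were Msh6 (0.0704), a mismatch repair gene, Susd1 (0.0843), Exo1 (0.0876), a DNA exonuclease gene, Cdca5 (0.0894), a gene for a cohesin regulator, and Fignl1 (0.0909). The median over all tested genes was 0.493. Of the other members Mtf2 came closest, as the 105th gene in the order (0.153), then Suz12 as the 264th (0.188) and Jarid2 as the 422nd (0.213). Ezh1 (7127th) and Phf1 (6370th) were farther from Ezh2 than the median gene. Among the genes closest to Ezh1 were Edem2 (0.0712), Gmppa (0.0717), Tor4a (0.0724) and Arap1 (0.0749), beside a median of 0.334. Phf1 was the member most like Ezh1 (0.211), and Ezh2 came 9748th in that order. Profiles were centred but not scaled to equal spread, so a small distance can also mean that both genes varied little. These distances describe patterns only.

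Other genes around PRC2 were read from lists of Polycomb and chromatin genes. Of 5 further PRC2-associated genes 4 were tested and 0 passed in any comparison or table, among them Aebp2, a cofactor of the JARID2-containing form, at 26.4 to 32.9 normalised FPKM in Ts1Rhr, 30.1 to 40.9 in HMGN1_OE and 24.5 to 31.7 in WT libraries. Ezhip, an inhibitor of PRC2 listed under its older symbol AU022751, was listed at 0 in all raw columns. The other Polycomb complex, PRC1, ubiquitinates histone H2A, and 27 of its 29 listed genes were tested. In Ts1Rhr against WT limma called 0 of 27 with normalised FPKM and 1 higher with raw FPKM, where 4.29% of all genes were called higher, and 25 of 27 had a normalised fold above 1, where 59.9% of all genes did. The called gene was Cbx2, whose product reads the PRC2 mark, with 7.98, 9.07 and 7.40 raw FPKM in Ts1Rhr and 4.33, 5.17 and 4.51 in WT libraries (log2 fold change 0.79 ± 0.21, limma adjusted p = 0.0464). Of 9 genes for H3K36 methylation and trithorax-group activities limma called 1 with raw FPKM, the H3K36 methyltransferase gene Whsc1 (0.71 ± 0.19, limma adjusted p = 0.0459), and 0 with normalised FPKM. None of 5 genes of the H2A deubiquitinase complex PR-DUB and none of 4 genes that demethylate or acetylate H3K27 was called in Ts1Rhr in either table. In this last list, Kdm6a, an X-linked demethylase gene of that mark, had 18.9, 25 and 12.3 raw FPKM in Ts1Rhr and 16.9, 17.5 and 19.1 in WT libraries, the low value being that of Ts1Rhr replicate 3. Against WT limma called 0 genes of these lists in HMGN1_OE, in both tables.

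Textbook targets of PRC2 in other tissues were largely without signal in all groups. Of 30 such genes 18 were listed at 0 in all raw columns and 28 had a mean below 1 FPKM, among them developmental regulators such as Pax6, Gata4 and Hoxa9. Only Cdkn2a and Igf2bp3 were tested. Cdkn2a, a cell-cycle inhibitor locus, had 3.38, 2.56 and 1.06 raw FPKM in Ts1Rhr, 4.53, 3.41 and 1.68 in HMGN1_OE and 2.62, 1.91 and 4.01 in WT libraries. For Cdkn2a the groups overlapped. Igf2bp3 in HMGN1_OE against WT had a log2 fold change of 0.95 ± 0.37 with raw FPKM (limma adjusted p = 0.305). There all HMGN1_OE libraries lay above all WT libraries, as for 9.81% of all genes. With normalised FPKM it was 1.31 ± 0.50 (limma adjusted p = 0.339), and these groups overlapped. In Ts1Rhr against WT, Igf2bp3 overlapped in both tables (0.52 ± 0.37 raw, 0.93 ± 0.50 normalised). Neither gene passed the test in any comparison.

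**Figure D4:**
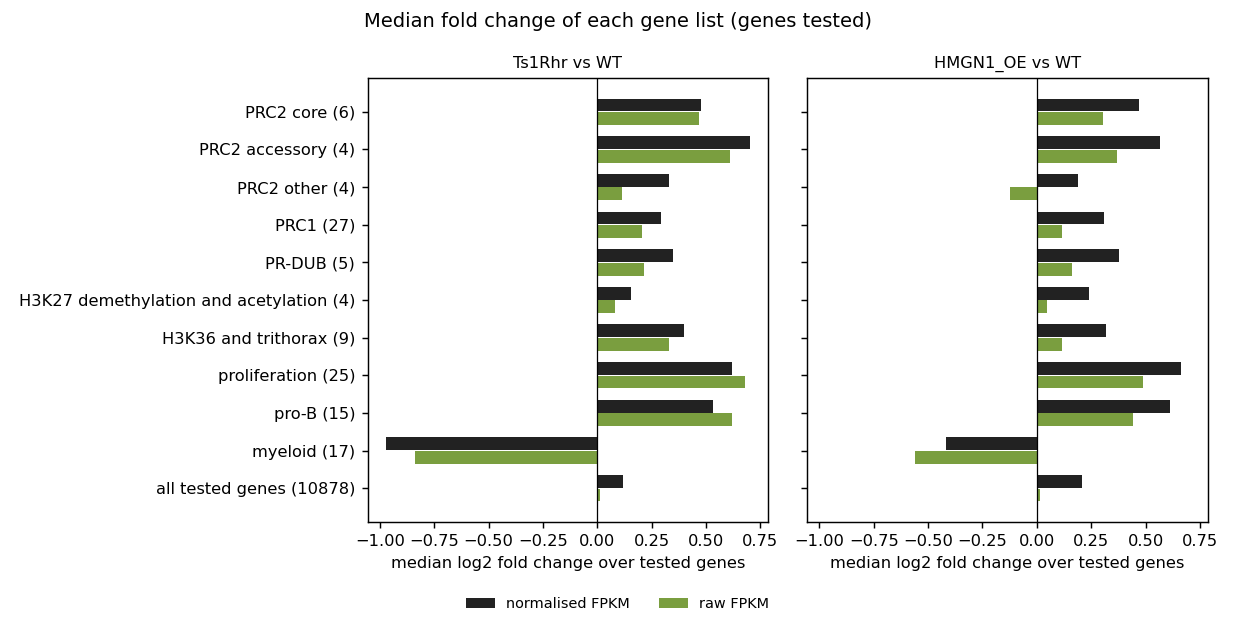
Median log2 fold change over the tested genes of each list, for Ts1Rhr against WT (left) and HMGN1_OE against WT (right), with normalised FPKM in black and raw FPKM in green and the number of tested genes in parentheses. The PRC2 core and accessory lists lie above all tested genes. So do the proliferation and pro-B lists and the other Polycomb and chromatin lists, except that of other PRC2 genes in HMGN1_OE. Core medians lie above those of the other Polycomb and chromatin lists and below those of the proliferation and pro-B lists. The myeloid list lies below 0.

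Lists for proliferation and for cell types were read beside the PRC2 genes. Of 25 proliferation genes (replication licensing, S-phase and mitotic genes) 23 had a normalised fold above 1 in Ts1Rhr against WT, where 59.9% of all genes did. Limma called 2 proliferation genes higher, Ccne2 and Pola1, with normalised FPKM and 14 with raw FPKM. Over all genes it called 0.423% higher with normalised and 4.29% with raw FPKM. Summed over the 25 proliferation genes, normalised FPKM was 2009 to 2399 in Ts1Rhr, 2105 to 2633 in HMGN1_OE and 1262 to 1926 in WT libraries, so both mutant groups lay above WT, as Ezh2 did. The 15 pro-B markers summed to 1867 to 2072 normalised FPKM in Ts1Rhr, 2131 to 2569 in HMGN1_OE and 1222 to 1935 in WT libraries, and limma called 0 with normalised and 6 with raw FPKM as higher in Ts1Rhr. The 19 myeloid markers summed to 12781 to 16379 normalised FPKM in Ts1Rhr, 13919 to 48681 in HMGN1_OE and 19967 to 68469 in WT libraries. All 17 tested myeloid genes had folds below 1 against WT in both mutant groups and both tables. Over all genes 40.1% did in Ts1Rhr and 27.3% in HMGN1_OE with normalised FPKM, and 48.9% and 48.3% with raw FPKM. Of the myeloid genes 0 were called with normalised FPKM in either group, 8 were called lower in Ts1Rhr and 0 in HMGN1_OE with raw FPKM, and Ctsg was at 0 in all raw columns of both mutant groups. Stromal markers, 5 of 6 tested, summed to 7.55 to 18.5 in Ts1Rhr, 7.27 to 14.5 in HMGN1_OE and 56.5 to 94.3 normalised FPKM in WT libraries, with 5 called lower in Ts1Rhr in both tables and, in HMGN1_OE, 4 with normalised and 2 with raw FPKM. Over all genes limma called 0.147% lower in Ts1Rhr with normalised and 4.56% with raw FPKM. In HMGN1_OE it called 0.0919% and 0.0368% of all genes in either direction. The part of the proliferation and cell type lists in the PRC2 differences was not tested, and in bulk cultures fewer cells of a type and less RNA per cell cannot be told apart. Of the markers of other lineages Car2 reached 118 raw FPKM and Thy1 19.9 raw FPKM. Car2, the 1 tested of 5 erythroid markers, was called higher in Ts1Rhr than in WT in both tables. Its log2 fold change was 1.21 ± 0.25 with normalised (limma adjusted p = 0.0410) and 1.26 ± 0.21 with raw FPKM (limma adjusted p = 0.0277). In HMGN1_OE against WT it was 0.92 and 0.76 and did not pass (limma adjusted p = 0.255 and 0.273). The hemoglobin genes Hba-a1 and Hbb-b1 were at 0 in all raw columns, Cd3e reached at most 0.95 raw FPKM, and the 4 mast cell and basophil markers summed to at most 2.97 raw FPKM.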

How the data were processed

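RNA sequencing libraries of 9 cultures were used, 3 per group, grouped by the description in the labels. The authors deposited a raw and a normalised FPKM table. Build mm9 of the mouse genome, HISAT and Cufflinks 2.0.0 are named without settings, per the submitters' processing notes. The labels do not describe how the normalised values were derived, and none of them is 0. The smallest increments of low raw values put the libraries very roughly at 0.754 to 1.39 times the depth of WT replicate 3. The estimates were 1.39, 1.14 and 1.33 in Ts1Rhr, 1.13, 1.37 and 1.21 in HMGN1_OE and 0.754, 0.813 and 1 in WT libraries. Every WT estimate was thus below every mutant one, and the part of depth in the differences of low transcripts was not tested.

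Of 23398 rows, 92 spike-in rows and 27 rows with calendar dates in place of symbols were left out. The 10878 genes averaging 1 raw FPKM or more were tested with limma (version 3.58.1, R 4.3.3; trended prior variance), with 1 mean per group over all 9 libraries, two-sided p and Benjamini-Hochberg adjustment. The normalised values entered as log2(FPKM) and the raw values as log2(FPKM + 0.1). The script was tested on simulated data. The Ezh2 to Ezh1 ratio was tested by exact permutation over libraries. Genes outside the member list were named where limma called them, where they were closest in pattern to Ezh2 or Ezh1, or as examples of a list. A gene that this rule also named is not reported here. Alternatives covered scaling, pseudocount, filter, samples in the fit, spread model, a replicate block and leaving out each library. Promoters are from RefSeq, and a table of proteins was not used here. The members and lists were chosen with earlier results of these data known.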

Additional observations from a re-analysis of the deposited data

How the results depend on the processing

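With normalised FPKM, limma called 0 members in Ts1Rhr against WT under every alternative. It called 4 with raw FPKM and 4 with raw FPKM at a pseudocount of 1, and 0 to 4 when 1 library was left out of either table (the raw leave-outs and the raw replicate block were chosen after seeing the data). Same-numbered replicates did not deviate together (correlations of -0.133 to 0.156), and the replicate block gave 0 members with normalised and 2, Ezh2 (adjusted p = 0.0451) and Mtf2 (adjusted p = 0.048), with raw FPKM. With that block the Ezh2 to Ezh1 difference of Ts1Rhr from WT was 0.87, exact sign-flip p = 0.25, the smallest that 3 pairs allow. Without 1 library it was 0.71 to 1.06 for Ts1Rhr against WT, 0.62 to 0.94 for HMGN1_OE against WT and -0.0721 to 0.27 for Ts1Rhr against HMGN1_OE, with a sign change without Ts1Rhr replicate 2 or HMGN1_OE replicate 2. No other comparison gave a member call under any alternative. Over all 10878 genes the calls in Ts1Rhr against WT were 62 with normalised and 963 with raw FPKM. The replicate block gave 119 with normalised and 314 with raw FPKM. There were 113 calls with 1 spike-in factor per library, 693 with equal library medians and 940 with raw FPKM at a pseudocount of 1. The calls were 8 with no filter, 267 with 2 groups only and 1 to 1276 without 1 library. In HMGN1_OE against WT they were 10, with 0 to 54 over the alternatives, and in Ts1Rhr against HMGN1_OE 0, with 0 to 41.

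Small fold changes changed sign, and the cause was not tested. Phf1 in Ts1Rhr against WT was -0.23 with raw FPKM (also with its replicate block), -0.0627 with 1 spike-in factor, -0.12 with equal medians and -0.19 with raw FPKM at a pseudocount of 1, and -0.29 to 0.15 without 1 library. Ezh1 without 1 library was -0.36 to 0.0309 in Ts1Rhr against WT, -0.31 to 0.13 in HMGN1_OE against WT and -0.21 to 0.17 in Ts1Rhr against HMGN1_OE, where 1 spike-in factor gave 0.0391. Ezh1 in HMGN1_OE against WT was 0.0015 at a pseudocount of 1. Phf1 in HMGN1_OE against WT was -0.0559 to 0.38 without 1 library. In Ts1Rhr against HMGN1_OE, Eed was 0.0079 with raw FPKM (also with its block), 0.0073 at a pseudocount of 1, 0.0074 with equal medians and 0.11 with 1 spike-in factor, and Rbbp7 was 0.18 with raw FPKM, its block and a pseudocount of 1 and 0.28 with 1 spike-in factor. Without 1 library the ranges there were -0.24 to 0.0916 for Eed, -0.16 to 0.24 for Rbbp7, -0.0201 to 0.43 for Ezh2, -0.0299 to 0.26 for Jarid2, -0.20 to 0.35 for Rbbp4 and -0.12 to 0.35 for Suz12. Every other member kept its sign in Ts1Rhr and in HMGN1_OE against WT under all alternatives run. Depth is unknown, so the counting error of low transcripts could not be given.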
